A study of Mus musculus with 12 samples.

Results

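L1cam, Chl1, Nrcam, Nfasc, Ncam1, Ncam2, Cntn1, Cntn2, Cntn4 and Dscam encode adhesion molecules of the immunoglobulin superfamily that neurons carry on their axons. These 10 genes were taken by symbol from a table of 21030 genes, and all 10 were found and passed the filter on low counts, which left 15737 genes to test. The counts came from cultured spinal cord cells, taken at embryonic day 12 from C57BL/6 mice labelled wild type. At that stage the cord holds dividing progenitors and young neurons. After trypsin dissociation 500000 cells were plated per well and grown for 48 hours, per the labels. Every well carried poly-D-lysine at 20 μg/ml, a synthetic polymer that cells stick to. The PDL group had nothing else. The Laminin group also had laminin at 1 μg/ml, a basement membrane protein that axons grow on readily. The Myelin group had wild-type myelin membranes at 10 μg/ml in place of laminin, and the Laminin + Myelin group had both. Each of the 4 coats had 3 libraries, numbered 1 to 3 and called biological replicates by the labels, which do not say whether they were separate litters or culture days. A p-value here therefore measures the spread between these libraries. The deposited title speaks of axon outgrowth from neural stem cells on adult myelin, so the question put to these 10 genes was whether their transcripts differed with the coat.

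The L1 family (L1cam, Chl1, Nrcam and Nfasc) spans the membrane with immunoglobulin and fibronectin type III domains outside and an ankyrin-binding tail inside, which ties the axon surface to the spectrin and actin skeleton. NCAM1 and NCAM2 are built from the same domain types, and NCAM1 is the main carrier of polysialic acid, a sugar chain that loosens contact between cells. Contactins have the same outer domains but are held in the membrane by a lipid anchor, so they signal through partners beside them, including L1 family members and receptor tyrosine phosphatases. DSCAM is a larger relative that recognizes copies of itself and, in the mouse retina, keeps the processes of like neurons apart. L1 is known for promoting neurite growth and bundling of axons, and L1 and contactin-2 are classical markers of growing spinal commissural axons.

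Stretches of DNA just upstream of a start site are shown for 4 members. They were picked because L1cam, Ncam2 and Cntn1 differed together between replicate numbers, as described further on, while Nrcam hardly varied. RefSeq (build GRCm38.p6) gave 14 start sites for 9 of the 10 genes, all but Ncam1. Each line is the 250 bases that precede one start site, read 5′ to 3′ on the gene's strand, and none of the 4 overlaps an annotated exon of its own gene. They lie at chrX:73880835-73881084 (minus strand), chr16:81200447-81200696 (plus), chr15:92050915-92051164 (plus) and chr12:44328635-44328884 (plus). The L1cam stretch precedes an internal start site and lies inside the annotated span of L1cam. Those of Ncam2, Cntn1 and Nrcam end where the annotated gene begins. Capitals mark the GC box GGGCGG and the E-boxes CAGCTG and CATCTG on either strand; CAGCTG is its own reverse complement, and none of the 3 motifs can contain another.
L1cam: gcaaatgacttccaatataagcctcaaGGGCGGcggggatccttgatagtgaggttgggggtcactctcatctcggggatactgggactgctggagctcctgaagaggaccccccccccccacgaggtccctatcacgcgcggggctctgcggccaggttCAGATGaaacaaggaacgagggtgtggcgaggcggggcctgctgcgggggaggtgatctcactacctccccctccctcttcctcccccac
Ncam2: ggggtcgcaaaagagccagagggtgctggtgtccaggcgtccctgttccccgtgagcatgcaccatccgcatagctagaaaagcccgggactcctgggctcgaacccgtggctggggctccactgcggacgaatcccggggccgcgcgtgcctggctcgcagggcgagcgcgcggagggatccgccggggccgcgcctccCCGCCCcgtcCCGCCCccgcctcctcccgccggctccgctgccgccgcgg
Cntn1: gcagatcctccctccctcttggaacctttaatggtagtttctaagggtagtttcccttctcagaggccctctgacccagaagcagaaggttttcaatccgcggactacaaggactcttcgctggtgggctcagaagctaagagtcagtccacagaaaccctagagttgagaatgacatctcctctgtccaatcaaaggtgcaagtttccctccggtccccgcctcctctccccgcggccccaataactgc
Nrcam: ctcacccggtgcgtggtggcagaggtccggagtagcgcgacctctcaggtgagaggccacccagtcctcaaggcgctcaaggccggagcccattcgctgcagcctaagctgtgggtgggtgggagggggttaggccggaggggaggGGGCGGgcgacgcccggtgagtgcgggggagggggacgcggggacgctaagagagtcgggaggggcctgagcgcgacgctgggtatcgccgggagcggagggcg
The L1cam stretch held 1 GC box and 1 E-box of the form CATCTG, Ncam2 held 2 GC boxes close to its start site, Nrcam held 1 GC box, and Cntn1 held none of the 3 motifs. Over the 14 start sites, a GC box stood in 5 (35.71%), against 32.74% of all 32851 such windows. CATCTG stood in 2 (14.29%, against 14.44%), both times as 1 and the same site in overlapping windows of L1cam, and CAGCTG in 1 (7.14%, against 13.0%). GC content was 63.2% for L1cam, 75.2% for Ncam2, 53.6% for Cntn1 and 72.4% for Nrcam, beside a median of 52.4% over all windows. A match of letters does not show a bound site.

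Between 36061511 and 45024091 counts per library fell in genes, and a member had at least 1304 counts (Ncam2) in every library. The share of all counts outside genes was 17.4% to 19.4% in the PDL libraries and 8.46% to 13.7% in the other 9, so PDL stood apart in this measure. Laminin replicate 1 had the lowest share, 8.46%, and the most counts in genes; calls of the 10 genes that change without it are given with and without it. Pan-neuronal markers were abundant in every library (14 of 14 measured, 13229 to 17805 CPM summed); CPM are counts relative to the TMM-scaled library total. Progenitor markers summed to 665 to 1327 CPM and astroglial ones to 844 to 1129.5. Most of the astroglial sum was Slc1a2, at means of 847, 818 and 730 CPM in replicate numbers 1, 2 and 3. Glul, at 157, 151 and 152 CPM, came next. Gfap, Aqp4, Aldh1l1 and Gja1 had means of 0.219 to 6.86 CPM. How much of this sum came from astroglia was not tested. Sensory neuron and Schwann cell markers summed to 41.2 to 68.9 CPM and vessel ones to 27.8 to 66.0. Fibroblast markers summed to 12.8 to 36.0 CPM and red cell ones to 1.55 to 4.93. By coat, the vessel sums were 27.8 to 32.9 CPM in PDL and 37.5 to 66.0 on the other coats. Microglial sums were 13.0 to 39.5 CPM in PDL and 19.4 to 90.1 on the other coats. Those of oligodendrocyte precursors were 68.3 to 117 and 76.1 to 159 CPM, and both of these overlapped. Summed markers of mature myelin-forming cells reached 74.8 to 196 CPM in the Myelin and 76.8 to 115 CPM in the Laminin + Myelin libraries, against 42.4 to 60.2 CPM in the 6 libraries without myelin. RNA carried in by the myelin membranes and RNA of the cultured cells cannot be told apart in these libraries, and wells of myelin without cells are not analysed here.

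Ncam1 had the highest transcript level per length of the 10, and Ncam2, its closest relative, the lowest. As CPM per kilobase of annotated exon (mean ± SD of the 12 libraries), Ncam1 stood at 126 ± 12.0, L1cam at 59.4 ± 11.9 and Chl1 at 50.2 ± 8.50. Nrcam followed at 29.2 ± 1.60 and Nfasc at 19.8 ± 3.32, so all 4 L1 family genes lay above Dscam and the contactins in mean level. Dscam stood at 14.2 ± 1.89, Cntn2 at 11.6 ± 1.28, Cntn1 at 8.87 ± 1.47, Cntn4 at 5.68 ± 0.513 and Ncam2 at 4.07 ± 0.605. In this order the libraries of Ncam1 and L1cam, of Chl1 and Nrcam, and of Cntn1 and Cntn4 did not overlap, and those of every other pair of neighbours did. With the longest transcript in place of all exons as the length, Cntn1 moved above Cntn2 and Dscam, whose 3 values then lay between 14.3 and 14.8, and the other ranks stayed. Of 4 genes of the same families outside the 10, 3 were low: per kilobase Cntn5 stood at 4.88, Cntn3 at 1.95 and Cntn6 at 1.64, and only Dscaml1, at 11.4, was near Dscam. The 10 mean levels had the same order on each of the 4 coats.

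**Figure D1:**
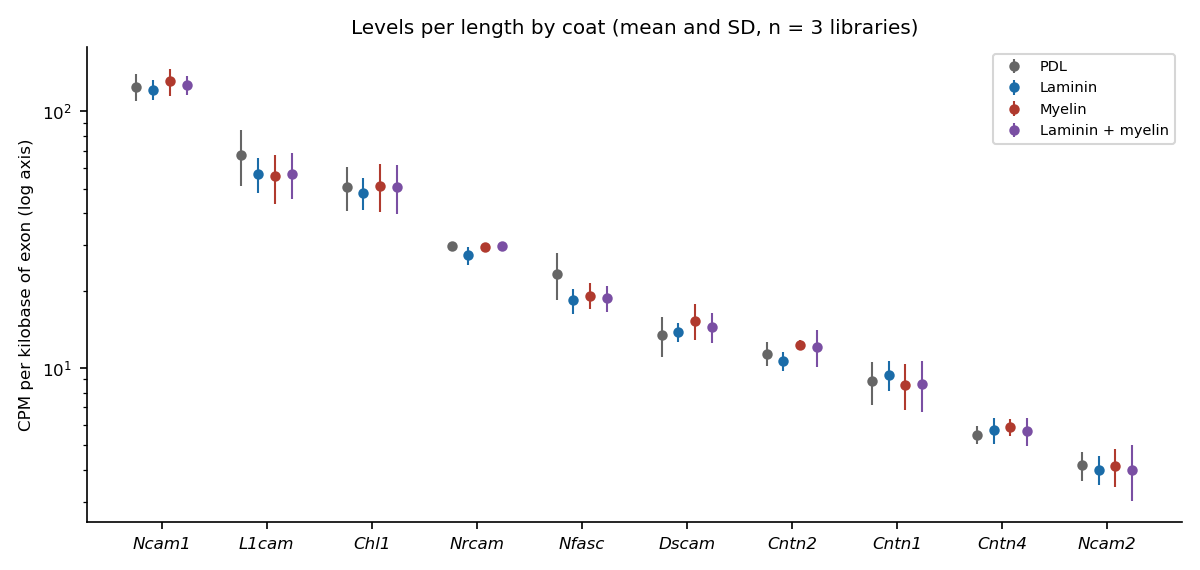
Level of each gene per exon length, in CPM per kilobase on a log axis, for each coat; points are means of 3 libraries and bars are SD. From Ncam1 at the left to Ncam2 at the right the means fall from above 100 to about 4 CPM per kilobase, and for each gene the 4 coats lie close together beside the gaps between genes.

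None of the 10 genes differed between coats past the threshold (adjusted p of 0.05 over all genes tested, edgeR quasi-likelihood test). This held for all 6 pairs of coats, for the effect of myelin averaged over laminin and for the interaction of myelin with laminin, each with 0 of 10 members called, and also for the tests of DESeq2 and limma. At an unadjusted p under 0.05 there was 1 member, Nfasc, in Laminin against PDL and 0 in the other 7 comparisons. Few genes were called at all: 2.29% of the genes tested in Myelin against PDL, 1.25% in Laminin + Myelin against PDL, 0.0254% in Myelin against Laminin, 0.0191% in Laminin + Myelin against Laminin, 0.0254% for the averaged myelin effect, and 0.00% in the remaining 3. So 0 of 10 is near the background. These shares hung on single libraries. Without PDL replicate 2 the share in Myelin against PDL was 0.0125%, without PDL replicate 1 it was 0.0187%, and without Laminin replicate 1 it was 6.53%. In Laminin + Myelin against PDL it was 0.00% without PDL replicate 1, 0.00626% without PDL replicate 2 and 5.48% without Laminin replicate 1, and for the averaged myelin effect it was 4.21% without Laminin replicate 1. With the share of counts outside genes as a covariate, 0.00% was called in every comparison with PDL. That share was higher in every PDL library than in any other library. A fit with it therefore cannot tell a coat's difference from PDL apart from the share, and the loss of calls decides nothing about the coats. The 3 comparisons with PDL share the PDL libraries and are not independent of one another. The median log2 difference of the 10 was 0.00 in Myelin and 0.00 in Laminin + Myelin against PDL, and -0.07 in Laminin against PDL, beside 0.02, 0.02 and 0.01 over all genes tested.

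The intervals bound how large a difference may have gone unseen, in a fit that leaves out the share of counts outside genes. With that share as a covariate the members' log2 values moved by up to 0.55, so the bounds do not carry over to that fit. Without the covariate, the 95% interval of every member excluded a change of 2-fold in either direction in all 8 comparisons. In each comparison with PDL it also excluded 1.5-fold for 8 of the 10, all but L1cam and Nfasc. Same-numbered libraries of different coats deviated together, so the fit was repeated with a block for the number. Here a larger share of all genes was called, 14.4% in Myelin, 8.15% in Laminin and 13.6% in Laminin + Myelin against PDL, 0.114% in Myelin and 0.102% in Laminin + Myelin against Laminin, and 8.63% for the averaged myelin effect. With each library left out in turn these shares ran from 0.997% (without Myelin replicate 2) to 32.6% in Myelin against PDL, from 0.00% (without PDL replicate 1 or 2) to 15.5% in Laminin against PDL, from 0.0877% (without PDL replicate 2) to 32.2% in Laminin + Myelin against PDL, and from 0.601% (without PDL replicate 2) to 30.0% for the averaged myelin effect. The top of the range was reached without Laminin replicate 2 in Laminin against PDL and without Laminin replicate 1 in the others. With the share of counts outside genes added to the block, 0.00% was called in all 3 comparisons with PDL and 0.0445% for the averaged effect. In the block fit of all 12 libraries still 0 of the 10 members passed in any comparison, and every interval against PDL excluded 1.5-fold. This bound too leaves out the covariate. With the block and the covariate the members' log2 values moved by up to 0.70 from the fit with neither. With the block 3 members had an unadjusted p under 0.05 in Myelin against PDL (L1cam, Nfasc and Dscam), and L1cam and Nfasc had one in the other 2 comparisons with PDL.

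**Figure D2:**
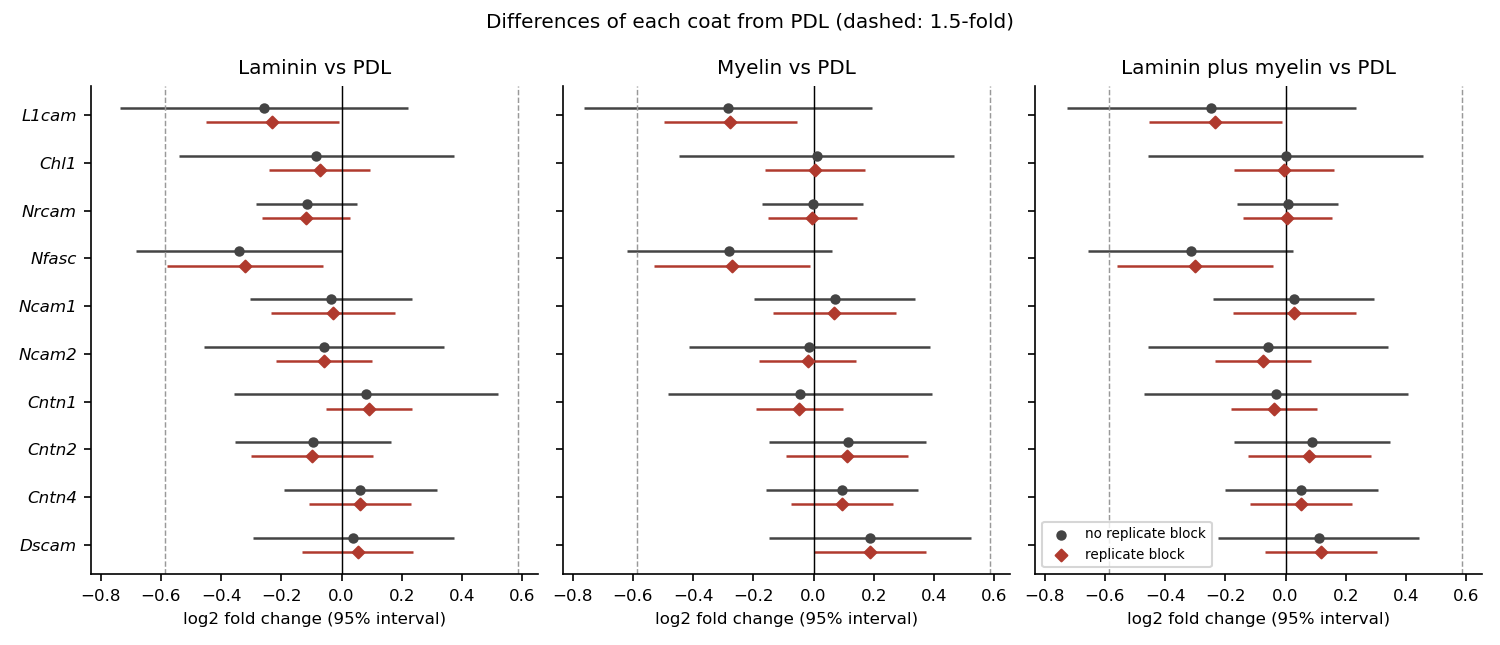
Log2 difference of each coat from PDL for the 10 genes with its 95% interval, from the fit without (grey circles) and the fit with (red diamonds) a replicate block; dashed lines mark 1.5-fold. L1cam and Nfasc lie farthest below 0 in all 3 panels, with fitted values of -0.34 to -0.23, and the interval of every gene with the block stays inside the dashed lines.

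L1cam, the founding member of its family (chrX:73853778-73896105 on GRCm38, minus strand), was read at 602, 529.8 and 364 CPM in PDL replicates 1, 2 and 3. It was read at 409, 485 and 357 CPM on laminin, at 493, 419 and 316 on myelin and at 514, 404 and 343 on both. Replicates 1 and 2 of PDL were above all 9 other libraries, but replicate 3 fell among them, so the groups overlapped. The log2 difference from PDL was -0.28 ± 0.22 (SE, adjusted p = 0.552, edgeR) on myelin, -0.26 ± 0.22 (0.590) on laminin and -0.25 ± 0.22 (0.622) on both. With the replicate block these became -0.28 ± 0.10 (0.0843), -0.23 ± 0.10 (0.141) and -0.23 ± 0.10 (0.138).

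Nfasc encodes neurofascin, which helps to gather sodium channels and ankyrin-G at the nodes of Ranvier. It lies at chr1:132564690-132741797, minus strand. PDL replicates 1, 2 and 3 read 394, 334 and 256 CPM, laminin 233, 290.0 and 255, myelin 298, 278 and 236, and both together 298, 241 and 253. As with L1cam, the first and second PDL libraries were the highest of the 12 and the third lay inside the range of the other coats. PDL replicate 1 was also the highest library of Chl1, Nrcam, Ncam1 and Cntn1. Its log2 difference from PDL was -0.34 ± 0.16 (SE, adjusted p = 0.288, edgeR) on laminin, -0.31 ± 0.16 (0.336) on both and -0.28 ± 0.16 (0.391) on myelin. With the replicate block the adjusted p was 0.0931, 0.108 and 0.139 in the same order.

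Taken within a replicate number, L1cam and Nfasc were each lower than PDL in 9 of 9 coat libraries. The log2 differences ran from -0.56 to -0.03 for L1cam and from -0.76 to -0.01 for Nfasc, each at its widest in Laminin replicate 1 and its narrowest in Laminin replicate 3. Each PDL library enters 3 of the 9, so these are not 9 independent readings. The share of counts outside genes was also higher in every PDL library than in any library of the other coats. A fit with it therefore cannot tell a difference from PDL apart from the share. With that share and the replicate block both in the fit, L1cam in Myelin against PDL stood at 0.35 ± 0.17 and Nfasc at 0.42 ± 0.22 (SE, adjusted p = 0.491 and 0.500, edgeR), the opposite sign and not called. Laminin replicate 1 mattered as well. Without it, in the fit with the block, 3 of 10 members passed in Myelin against PDL (L1cam at -0.28, Nfasc at -0.27 and Dscam at 0.19 on the log2 scale), when 32.6% of all genes did, and L1cam and Nfasc passed in Laminin + Myelin against PDL, when 32.2% did. In the averaged myelin effect L1cam, Nfasc and Cntn1 then passed, at -0.22, -0.21 and -0.12, beside 30.0% of all genes. Without PDL replicate 3, Nfasc alone of the 10 passed in Laminin + Myelin against PDL, at -0.42, beside 14.2%.

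The other 2 genes of the L1 family overlapped between coats. Chl1 (chr6:103510586-103750211, plus strand), the close homolog of L1, read 743, 635 and 498 CPM on PDL, 615, 658 and 497 on laminin, 703, 710.3 and 475 on myelin, and 743, 659 and 475 on both. In each coat the lowest was replicate 3, and the 4 groups overlapped. Nrcam (chr12:44328885-44601964, plus strand), which acts in the guidance of commissural axons and later at nodes of Ranvier, read 414, 391 and 388 CPM on PDL and 334, 392 and 374 on laminin. On myelin it read 385, 413 and 392 and on both 403, 409 and 387. Only Laminin replicate 1 left the narrow band of 374 to 414 CPM. The SD of log2 CPM over the 12 libraries put Nrcam at the 5.17th percentile of the genes tested, the steadiest of the 10. Its log2 difference from PDL was 0.00 ± 0.08 on myelin, 0.01 ± 0.08 on both and -0.12 ± 0.08 on laminin (SE), where the 95% interval ran from 0.822-fold to 1.04-fold of PDL.

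Ncam1 (chr9:49502136-49798925, minus strand) read 1228, 1037 and 975 CPM on PDL, 966, 1155 and 1041 on laminin, 1205, 1223 and 976 on myelin, and 1209, 1061 and 1031 on both. Its groups overlapped, and the log2 difference from PDL was 0.07 ± 0.12 on myelin, -0.04 ± 0.12 on laminin and 0.03 ± 0.12 on both (SE). An antisense gene, Gm11149, covers 4.813% of its exon bases, and how the counting treated strand is not stated. Ncam2 (chr16:81200697-81626828, plus strand), known for its part in sorting olfactory axons, read 53.3, 47.2 and 41.2 CPM on PDL, 51.4, 44.9 and 39.8 on laminin, 54.3, 47.2 and 38.8 on myelin, and 56.5, 45.1 and 34.4 on both. The coats were nearly superimposed, and within every coat the order of the replicate numbers was the same.

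Among the contactins, Cntn1 (chr15:92051165-92341967, plus strand), which joins the axon to glia beside the nodes of Ranvier, read 101, 80.9 and 68.8 CPM on PDL and 98.2, 91.2 and 75.6 on laminin. On myelin it read 96.0, 83.6 and 63.5 and on both 99.9, 82.6 and 62.8, again in one order of the numbers. Its log2 differences from PDL lay between -0.04 and 0.08. Cntn4 (chr6:105677660-106699310, plus strand), an adhesion molecule of olfactory and retinal axons, read 50.3, 42.9 and 46.0 CPM on PDL, 53.7, 42.5 and 49.3 on laminin, 54.0, 48.0 and 46.8 on myelin, and 54.0, 48.5 and 42.0 on both. Those 12 values span 1.28-fold.

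Cntn2 encodes contactin-2, also called TAG-1, which marks young neurons as they send out their first axons. It lies at chr1:132509427-132543256, minus strand, only 21.4 kb from Nfasc. It read 117, 94.3 and 105 CPM on PDL, 90.3, 98.6 and 107 on laminin, 111, 112 and 119.7 on myelin, and 101, 102 and 133 on both. All 3 Myelin libraries were above all 3 Laminin libraries, the one pair of coats in which 3 values of this gene stood clear of 3 others. The log2 difference was 0.21 ± 0.12 (SE, adjusted p = 1.00, edgeR), or 0.21 ± 0.09 (0.609) with the replicate block. Averaged over laminin, myelin gave 0.15 ± 0.08 (0.509), and Cntn2 was higher with myelin in 5 of 6 same-numbered pairs.

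Dscam (chr16:96590840-97170752, minus strand) read 139.7, 115 and 98.2 CPM on PDL, 121, 132 and 111 on laminin, 149, 144 and 109 on myelin, and 147, 120.0 and 115 on both. It was higher than PDL in 8 of 9 same-numbered coat libraries, all but Laminin replicate 1. Its log2 difference from PDL was 0.19 ± 0.15 on myelin (SE, adjusted p = 0.576, edgeR), 0.11 ± 0.15 (0.767) on both and 0.04 ± 0.15 (0.937) on laminin. With the block and the share of counts outside genes in the fit the first became 0.47 ± 0.19 (0.476). Transcripts annotated on the opposite strand cover 3.102% of its exon bases.

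**Figure D3:**
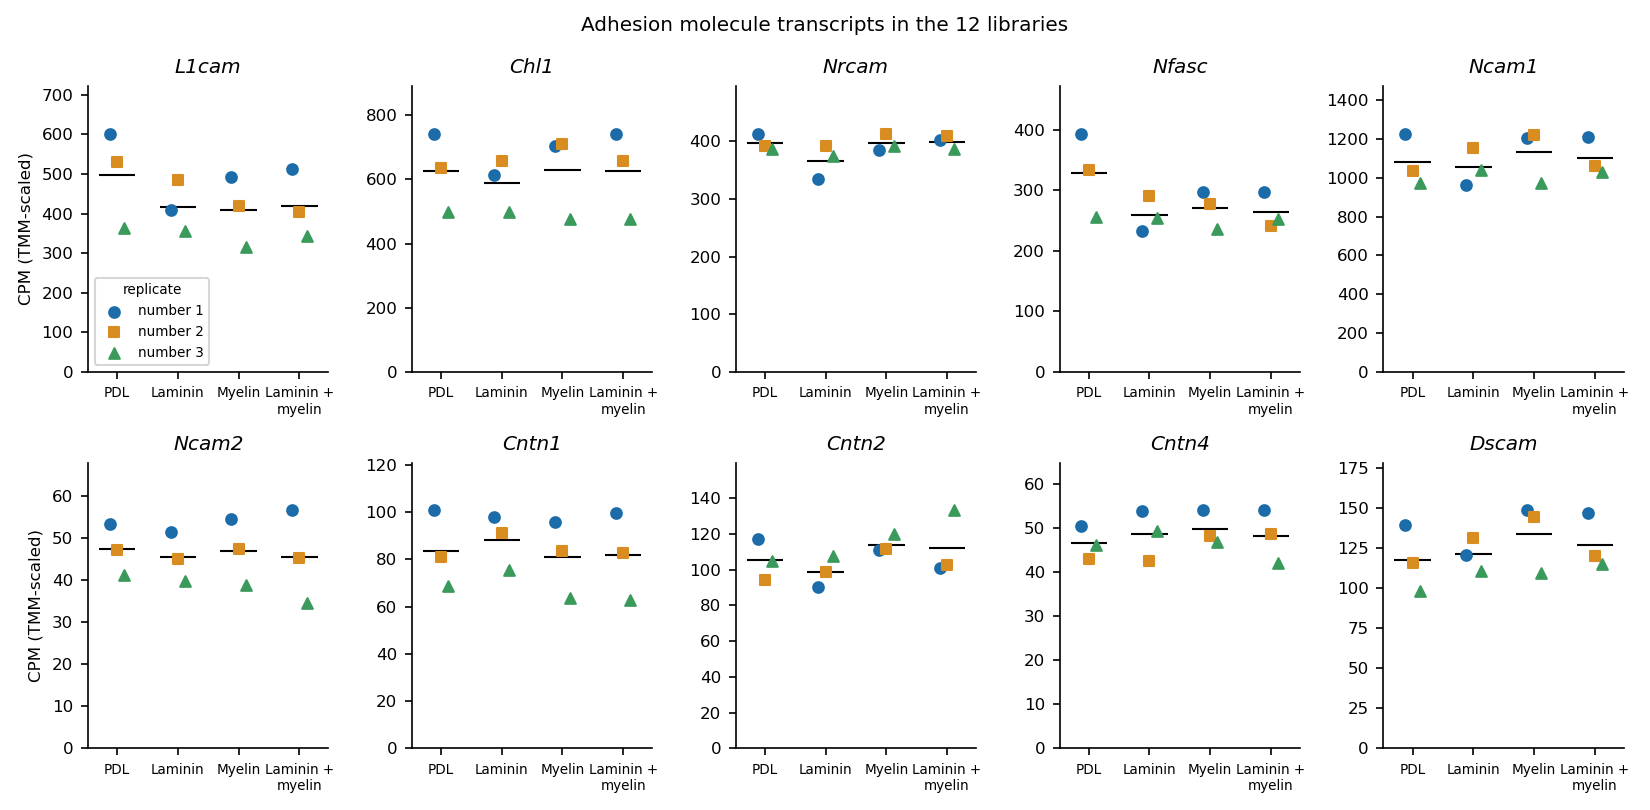
CPM of the 10 genes in all 12 libraries by coat, on linear axes from 0; symbols give the replicate number and the bar the mean of 3 libraries. The triangles of number 3 lie lowest on every coat for L1cam, Chl1, Ncam2, Cntn1 and Dscam, and Nrcam is nearly flat. The highest points of L1cam and Nfasc are in PDL, as are those of Chl1, Nrcam, Ncam1 and Cntn1.

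The interaction sets the effect of myelin on laminin-coated wells against its effect on PDL alone, and its errors were wider than those of the pairs of coats. It ranged from -0.12 ± 0.22 for Dscam to 0.31 ± 0.22 for Nfasc on the log2 scale (SE), with adjusted p between 0.778 and 0.997 (edgeR). Its 95% intervals reached 1.96-fold for L1cam and 1.73-fold for Nfasc. In Laminin + Myelin against Myelin, the comparison in which the members differed least, all 10 lay between -0.08 and 0.04.

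In the authors' deposited table none of the 10 genes had an adjusted p-value under 0.05 in any of the 6 pairs of coats. The lowest p-value in the authors' deposited table was 0.0400, for Nfasc in Laminin against PDL, at a log2 fold change of -0.33 and an adjusted p-value of 0.456. For L1cam the authors' deposited table listed -0.28 in Myelin against PDL with an adjusted p-value of 0.669.

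A difference that passed the test was seen between replicate numbers. In a test of the number with coat as the other term, 6 of the 10 genes, L1cam, Chl1, Ncam2, Cntn1, Cntn4 and Dscam were called, and so were 39.9% of all genes tested, so such calls were common. Cntn1 was the clearest: its 4 libraries of number 1 read 96.0 to 101 CPM, those of number 2 80.9 to 91.2 and those of number 3 62.8 to 75.6, with no overlap (adjusted p = 4.46e-05, edgeR F test). Ncam2 likewise fell into 3 separate ranges, 51.4 to 56.5, 44.9 to 47.2 and 34.4 to 41.2 CPM (adjusted p = 0.000276, edgeR F test). In Chl1 and L1cam it was number 3 that lay apart. Chl1 read 475 to 498 CPM there, and at least 615 in the other 8 libraries (adjusted p = 0.000134, edgeR F test). L1cam read 316 to 364 CPM in number 3 and at least 404 elsewhere (adjusted p = 0.00109, edgeR F test). Dscam, at 98.2 to 115 CPM in number 3, was highest there just below its lowest library of number 2 (adjusted p = 0.00582, edgeR F test). Cntn4 differed in another way, at 50.3 to 54.0 CPM in number 1 and 42.0 to 49.3 in both other numbers (adjusted p = 0.0305, edgeR F test).

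As log2 differences of number 1 from number 3, Cntn1 stood at 0.55 ± 0.06, L1cam at 0.54 ± 0.09, Chl1 at 0.52 ± 0.07, Ncam2 at 0.49 ± 0.06, Dscam at 0.36 ± 0.07 and Cntn4 at 0.20 ± 0.07 (SE, 4 libraries a number). These are 1.15-fold to 1.46-fold. The other 4 were not called: Nfasc at 0.27 ± 0.10 (adjusted p = 0.123, edgeR F test), Ncam1 at 0.19 ± 0.08 (0.154), Cntn2 at -0.15 ± 0.08 (0.146) and Nrcam at -0.01 ± 0.06 (0.586). Over all genes tested the median was 0.01. L1cam, Chl1, Ncam2, Cntn1 and Dscam were called under each of 17 other settings (29.5% to 49.0% of all genes), Cntn4 under 11, Nfasc and Ncam1 under 2 (one of them without Laminin replicate 1), Cntn2 under 1 and Nrcam under 0.

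Neuronal and progenitor markers moved with the replicate number too. The F test of the number called 39.9% of all genes tested, and it does not single out number 1 against number 3. Of 14 pan-neuronal markers 13 were called by it and higher in number 1 than in number 3, and 0 were called and lower. The median of the list was 0.40 on the log2 scale. Their summed level was 15805 to 17805 CPM in number 1, 15136 to 17531 in number 2 and 13229 to 13750 in number 3. All 13 progenitor markers were lower in number 1 than in number 3, with a median of -0.73, and their sums were 665 to 746, 684 to 864 and 1010 to 1327 CPM. Of 10 microglial markers 9 were called and lower, at a median of -1.82 over the list. Of 8 markers of oligodendrocyte precursors 7 were called and lower, at -0.78. Of 7 fibroblast markers 4 were called and higher and 1 was called and lower, at a median of 1.15. The fibroblast sums of 28.9 to 36.0 CPM in number 1 lay above the 15.3 to 26.7 of number 2 and the 12.8 to 23.2 of number 3. In RNA from whole wells, fewer cells of a type and less RNA per cell cannot be told apart, and the part of cell makeup in the members' differences was not tested. L1cam, Chl1, Ncam2 and Cntn1 lay above the median of the pan-neuronal markers, and Nrcam and Cntn2 below the lowest of the 14. The 4 relatives behaved like the called members. Cntn3 stood at 0.74 ± 0.08, Dscaml1 at 0.56 ± 0.10, Cntn6 at 0.42 ± 0.08 and Cntn5 at 0.23 ± 0.07. All 4 were called in the F test, as 39.9% of all genes were, and were higher in number 1 than in number 3.

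**Figure D4:**
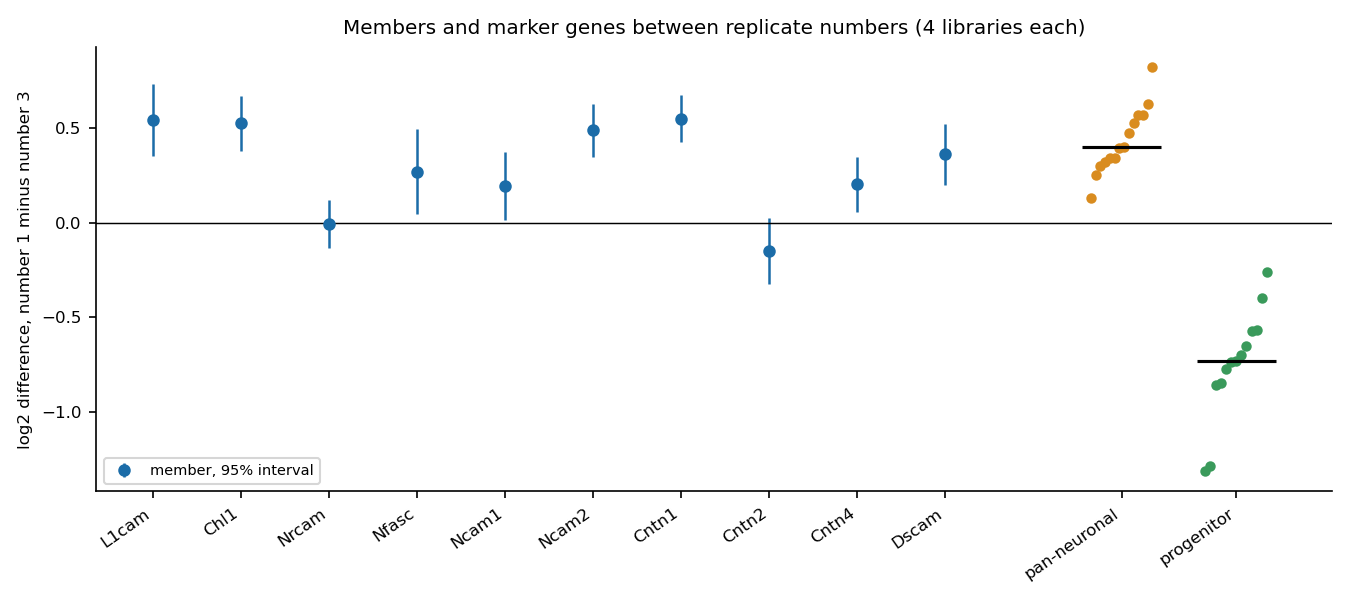
Log2 difference of replicate number 1 from number 3 (4 libraries each, one per coat): the 10 genes with 95% intervals at the left, and single markers of pan-neuronal (14) and progenitor (13) lists at the right with their medians as bars. Most of the genes lie with the pan-neuronal markers above 0, Nrcam lies at -0.01 and Cntn2 at -0.15, and every progenitor marker is below 0.

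The molecules that the 10 bind, and the machinery behind them, were read from lists of 22 outer partners, 18 skeletal adaptors, 16 signalling proteins, 7 glycan enzymes, 10 shedding proteases and the 4 relatives. Without the replicate block none of their genes was called in any comparison, against the backgrounds above. With the block, in Myelin against PDL, 2 of 22 partners were higher and 0 lower, 1 of 18 adaptors was higher and 1 lower, 3 of 16 signalling proteins were higher and 1 lower, and 1 of 7 glycan enzymes and 1 of 10 proteases were higher; over all genes 4.37% were higher and 10.0% lower. Of the relatives 0 of 4 were called on any coat. The calls with the block were 33 in all, of 17 genes. Over all genes, 14.4% were called in Myelin, 8.15% in Laminin and 13.6% in Laminin + Myelin against PDL. For the averaged myelin effect the share was 8.63%. Whether the lists held more calls than other genes was not tested. With the share of counts outside genes also in the fit 0 of the 33 held (adjusted p from 0.242 to 0.981, edgeR), and 19 had the other sign. In the comparisons with PDL that fit cannot tell coat and share apart, so it does not decide these calls. Without PDL replicate 2 all 33 were lost, and without PDL replicate 1 there were 28 lost, with the sign kept. The values that follow are those of the block fit of all 12 libraries. Gap43, a growth cone protein through which NCAM signals, was higher on every coat with the block, by 0.38 ± 0.09 on myelin (388 ± 61.7 CPM on PDL, 504 ± 81.0 on myelin, SD, n = 3; adjusted p = 0.0156, edgeR). App, the amyloid precursor protein and a contactin ligand, was higher by 0.26 ± 0.06 on myelin (adjusted p = 0.0178) and on both (0.0193). Cntnap2, a membrane partner of contactin-2 in myelinated axons, was higher by 0.27 ± 0.07 on myelin (0.0248) and by 0.25 ± 0.07 on laminin (0.0472). These Cntnap2 calls were lost in 4 and 11 of 12 fits with 1 library left out. B3gat2, which helps to make the HNK-1 sugar carried by several of these adhesion molecules, was higher on each coat, by 0.26 to 0.30. Grb2, an adaptor of receptor signalling, was higher on each as well, by 0.24 to 0.27.

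The matrix-cutting protease Mmp14 was higher by 0.70 ± 0.16 on myelin and by 0.58 ± 0.16 on both (adjusted p = 0.0157 and 0.0352, edgeR with the replicate block), at a low level of 2.63 to 9.78 CPM. The Mmp14 call on myelin ended when Myelin replicate 2, Myelin replicate 3 or the second PDL library was left out, 3 of 12 such fits. The call on both ended in 8 of 12. Adam10, the protease that releases the outer part of L1 and other members, was higher in the averaged myelin effect by 0.16 ± 0.04 (0.0484). That call was lost in 10 of 12 fits with 1 library left out. Also called with the block were Msn, Map2k1, Ptprg, Alcam and Ptn, which were higher, and Cntnap1, Bcan, Ank1 and Plcg1, which were lower, in at least 1 comparison. Plcg1, a phospholipase downstream of growth factor receptors, stood at -0.30 ± 0.08 on myelin and -0.33 ± 0.08 on both. Ptn, encoding the growth factor pleiotrophin, was higher on laminin by 0.42 ± 0.09 (0.0225), a call that was lost without PDL replicate 1 or PDL replicate 2. Cntnap1, the partner of Cntn1 beside the nodes, stood at -0.61 ± 0.18 on both (0.0479), at only 3.70 to 9.64 CPM.

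Profiles over the 12 libraries were compared as log2 CPM centred on each gene's mean. Among the members the closest pair was Ncam2 and Cntn1, which differed by a root mean square of 0.0850 log2 units, just ahead of Ncam1 and Dscam at 0.0852. L1cam and Nfasc differed by 0.133 and L1cam and Chl1 by 0.138, whereas L1cam and Cntn2 differed by 0.356, the widest gap of all. Among 10989 genes at a mean of 5 CPM or more, the nearest to L1cam were Chd5 (0.0491), a chromatin remodeller of neurons, and Kalrn (0.0577). Myt1l, a neuronal transcription factor, was nearest to Chl1 (0.0477), with Atp8a1 next (0.0544). Unc13a, which primes synaptic vesicles, was nearest to Nfasc (0.0403), followed by the postsynaptic scaffold gene Shank2 (0.0543). Nearest to Ncam1 were Bach2 (0.0331) and Lmtk2 (0.0357), to Nrcam Uggt1 (0.0246) and Hipk3 (0.0277), and to Dscam Agap1 (0.0374) and Phactr1 (0.0432). The remaining members had Dzank1 and Zfp558 (Ncam2), Slc25a12 and Igf1 (Cntn1), Btbd11 (Cntn2), and Slc17a6 and Dcaf6 (Cntn4), at 0.0567 to 0.0780. All these profiles share the same 12 libraries and their depth.

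In the genome the 10 are long genes. Their median span was 281.9 kb, against 23.61 kb for the 14984 tested genes with an annotated span, and 7 of the 10 exceeded 200 kb, as 6.14% of those genes did. Cntn4 is the longest at 1021.7 kb, and Cntn2 (33.8 kb) and L1cam (42.3 kb) are the short ones. Chl1, Cntn6, Cntn4 and Cntn3 share a stretch of chromosome 6 with Cntn6 between Chl1 and Cntn4, 742.6 kb from the first and 814.3 kb from the second. The 920 tested genes over 200 kb had a median log2 difference from PDL of 0.04 on myelin, -0.02 on laminin and 0.05 on both, beside 0.00, -0.07 and 0.00 for the 10. In Myelin against PDL Nfasc stood at -0.28 and Cntn2, its near neighbour, at 0.11, neither past the threshold.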

How the data were processed

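RNA of 12 libraries was sequenced with a TruSeq RNA kit in paired-end form, per the labels. The authors deposited whole-number counts per gene, with no normalization, and beside them their own comparisons as log2 fold changes and p-values. The deposited normalized values, a signal in 12 columns, were not used. CASAVA 1.8.2, edgeR and the builds mm10 and GRCm38 stand in the submitters' processing notes. For the aligner, the counter and its treatment of strand, no name is given in the sources used here.

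Of 21033 entries 3 name no gene and were left out; they held 22.6% to 32.1% of all counts. edgeR 4.0.16 in R 4.3.3 was fitted to all 12 libraries at once (filterByExpr, TMM scaling, robust quasi-likelihood, 1 coefficient per coat, no replicate block), with Benjamini-Hochberg adjustment over 15737 genes and a threshold of 0.05, two-sided. CPM are TMM-scaled; log2 CPM have a prior count of 2. Replicates of a coat differed by more than sampling noise (chi-square per degree of freedom of 18.5 to 73.7). All 18 same-numbered pairs of libraries deviated together (r of 0.218 to 0.830; 36 pairs of other numbers, -0.770 to 0.243), so the numbers were taken to pair the libraries, which is read from the counts and not the labels; a block lowered the biological coefficient of variation from 0.205 to 0.0901. The replicate number was tested by an F test with coat as the other term. The alternatives were the block, DESeq2 1.42.0 and its size factors, limma 3.58.1 (voom), no filter, the share of counts outside genes as a covariate, each library left out, and another gene length. The code was tested on simulated data.

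The members and gene lists were chosen with earlier results of these data known. All 10 members are named; a listed gene is named if it passed in any comparison with or without the block (at most 4 per list and comparison), and the 2 genes nearest each member in profile are named, except 1 that is not reported here. Lengths and positions are from GENCODE M21 on GRCm38, matched by symbol. Figures were drawn with matplotlib 3.10.9.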

Additional observations from a re-analysis of the deposited data

Results flagged for a closer look

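Each member's 4 libraries of 1 replicate number were searched for a library far from the others, which chance alone flags in about 1 of 20 such groups; 3 of 30 groups were flagged. Ncam1 read 966 CPM in Laminin replicate 1, the nearest library of number 1 reading 1205. Cntn4 read 50.3 CPM in PDL replicate 1, and the other libraries of number 1 read 53.7 to 54.0. Nfasc read 236 CPM in Myelin replicate 3, and the other libraries of number 3 read 253 to 256.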

How the results depend on the processing

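The count of 0 members called held in all 8 comparisons under another size factor, no filter, DESeq2, limma, the share of counts outside genes as a covariate and the replicate block, alone or together. With single libraries left out it also held without the block. With the block, leaving out each library in turn gave 0 to 3 members in Myelin against PDL and in the averaged myelin effect (3 without Laminin replicate 1), and 0 to 2 in Laminin + Myelin against PDL (2 without Laminin replicate 1, 1 without PDL replicate 3); the cause was not tested. The block changed no other call of a member. Of the 80 uncalled log2 values (10 genes in 8 comparisons), 21 changed sign with the covariate and 28 with covariate and block. In the comparisons with PDL that covariate cannot be told apart from the coat. Between replicate numbers 5 to 8 members were called over 17 settings; Cntn4 was lost under 6 of them, with adjusted p up to 0.119. With 3 libraries a coat, no block and no covariate, the widest interval against PDL, that of L1cam, reached 1.70-fold.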
